A study of Mus musculus with 18 samples.

Results

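The genes described here were *Plat*, *Plau*, *Plaur* and *Serpine2*, which act in the activation of plasminogen, and they were taken by symbol from a liver RNA-seq table, so that they make up 4 of its 15052 genes. *Plat* encodes tissue-type plasminogen activator, *Plau* encodes urokinase, *Plaur* encodes the urokinase receptor and *Serpine2* encodes protease nexin-1. The study fed C57BL/6J wild-type (WT) mice and whole-body *Apoe* knockout (KO) mice a liquid diet and sequenced polyA RNA from the liver. All 18 mice were labelled female and were 10 to 12 weeks old. After 5 days on the liquid control diet, mice received for 10 days either a diet that held 5% (v/v) ethanol, followed by an ethanol gavage of 5 g/kg on day 11 (EtOH-fed), or an isocaloric diet and a dextrin-maltose gavage of 9 g/kg (pair-fed), and livers were taken 9 hours after the gavage. The pair-fed mice were 4 WT and 5 *Apoe* KO animals, the EtOH-fed mice were 5 WT and 4 *Apoe* KO animals, and each number given to a mouse below is that of its label. Every cell of the knockout mice carried the deletion, and whole liver was sequenced, so the values are sums over all liver cells.

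Plasminogen is made by hepatocytes and circulates as an inactive precursor. Tissue-type activator cleaves it mainly on fibrin, whereas urokinase cleaves it near the cell surface when bound to its receptor, and the plasmin so formed dissolves fibrin and degrades extracellular matrix. Serpins, a family of suicide inhibitors, limit both activators, and among them protease nexin-1 inhibits thrombin, urokinase and tissue-type activator close to cells. In the injured liver this system takes part in the removal of fibrin and matrix and in the release of growth factors.

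The deposited value of a gene in a mouse is a read count rescaled so that mice share almost the same total, then rounded, and the 18 totals differed by at most 0.0779%. From the spacing of the low values, the number of reads behind them could be estimated in 12 of the 18 mice and ran from 5600000 to 45900000 in total. Over those 12 mice the estimated reads were 4 to 149 for *Plat*, 14 to 126 for *Plau*, 18 to 161 for *Plaur* and 30 to 170 for *Serpine2*, so that the lowest values carry a large counting error. The targeted gene followed the labels, with *Apoe* values of 611230 to 791833 in WT and of 12041 to 61572 in knockout animals among the EtOH-fed mice. In the pair-fed mice they were 658805 to 798431 in WT and 8586 to 108651 in knockout animals, where mouse 4 was the highest. EtOH-fed *Apoe* KO mouse 1, the library with the most estimated reads, stood apart from its female label: *Xist*, the RNA of the inactive X chromosome, was at 826 against 15227 to 30379 in the other 17 mice, and the Y-linked *Ddx3y* was at 1077 against 2 to 118. Calls that were lost, and values that moved by more than 1.5 times, without this mouse are therefore given with and without it for the 4 genes and the pathway gene lists. For the cell type marker lists only counts are given, and a count can stay equal while its members change. The labels do not say more about litters or cages, and p-values measure the spread between these mice.

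Among the EtOH-fed mice the tissue-type activator and the urokinase receptor were higher in *Apoe* KO than in WT liver, *Plat* 3.93-fold and *Plaur* 2.11-fold. The *Plaur* call lay close to the threshold (limma adjusted p = 0.0486). It was lost after median-of-ratios scaling (adjusted p = 0.0687), which left 1 of the 4 genes, and in 8 of 9 fits that left out 1 mouse. *Plau* was separated between the genotypes in every mouse but did not pass the test, and *Serpine2* did not pass. Thus 2 of the 4 genes passed an adjusted p of 0.05, both higher, where 4.69% of all genes passed in either direction and 4.25% were higher, in a limma fit on log2(value + 1) with Benjamini-Hochberg adjustment over all 15052 genes. Because the 4 genes were chosen with earlier results of these data known, their share describes them and is no test of an excess. For 3 of the 4 genes the values of the EtOH-fed genotypes did not overlap, and 8.13% of all genes showed this in either direction. For *Plau* the closest values were 89 in *Apoe* KO mouse 1 and 88 in WT mouse 5. The median log2 fold change of all genes in this comparison was 0.11 as deposited and -0.02 after median-of-ratios scaling, and the calls over all genes went from 639 higher and 67 lower to 379 higher and 127 lower. The fold changes of the 4 genes are to be read against that shift. Depth differed between these groups: in EtOH-fed WT mice 1, 2, 3 and 5, 1 read was worth about 1 unit or less, whereas the *Plat* values of EtOH-fed *Apoe* KO mice 1, 2, 4 and 5 rested on an estimated 149, 51, 64 and 23 reads. With limma-voom on the estimated reads, where 1 unit was taken as 1 read in the unresolved mice, among them 4 of the 5 EtOH-fed WT mice, the log2 fold changes were 1.86 for *Plat* (adjusted p = 0.00641), 1.09 for *Plaur* (adjusted p = 0.0302) and 0.78 for *Plau* (adjusted p = 0.140).

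Within the *Apoe* KO mice, *Plat*, *Plau* and *Plaur* rose with EtOH feeding, 3.22-fold, 2.54-fold and 2.11-fold. These were 3 of the 4 genes, in a comparison in which 23.2% of all genes passed in either direction and 16.3% were higher. Median-of-ratios scaling turned its calls over all genes from 2446 higher and 1042 lower into 1646 higher and 1616 lower, and moved its median log2 fold change from 0.13 to -8.0e-05. The same diet comparison in WT mice gave 0 of 4 genes, against 12.7% of all genes, also with limma-voom on estimated reads, and 0 of 4 at an unadjusted p under 0.05. In pair-fed *Apoe* KO against pair-fed WT mice 0 of 4 genes passed, against 1.73% of all genes, and limma-voom likewise gave 0. At an unadjusted p under 0.05 there were 2 of 4. The share of all genes at that unadjusted cut is not given here, for this comparison or for the diets in WT mice. Neither unadjusted count is therefore read as a result. The interaction, which is the *Apoe* KO minus WT difference in EtOH-fed mice minus that in pair-fed mice, was positive and past the threshold for *Plat* and *Plau*, 2 of 4 genes against 2.84% of all (2.60% positive). These comparisons share groups of mice, and the EtOH-fed *Apoe* KO mice enter 3 of the 5, so their results are not independent of each other.

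**Figure D1:**
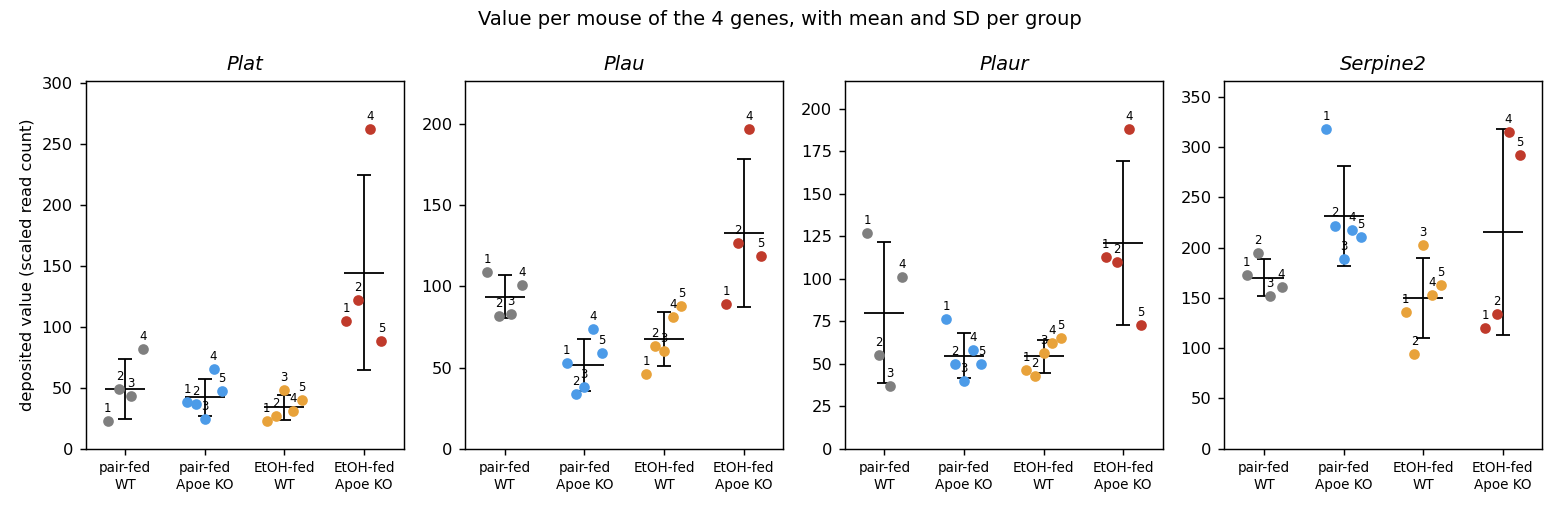
Deposited value of each of the 4 genes in each mouse, by group, with the vertical axis in scaled read counts starting at 0. The numbers are mouse labels, the long bar is the group mean and the short bars are 1 SD. EtOH-fed *Apoe* KO mouse 4 is the highest point of its group in every panel, and for *Plat* all 4 EtOH-fed *Apoe* KO mice, from 88 to 262, lie above the other groups, which reach 82.

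*Plat*, the activator that works on fibrin, lies on chromosome 8 at 22757727 to 22782844 on the plus strand of GRCm38 (GENCODE M21). Its values in pair-fed WT mice 1 to 4 were 23, 49, 43 and 82. They were 38, 37, 24, 65 and 47 in pair-fed *Apoe* KO mice 1 to 5. EtOH-fed WT mice 1 to 5 had 23, 27, 48, 31 and 40, while EtOH-fed *Apoe* KO mice 1, 2, 4 and 5 had 105, 122, 262 and 88. The first 3 groups overlapped almost wholly, and the EtOH-fed *Apoe* KO mice stood above all of them, mouse 4 by the widest margin. The mean of the EtOH-fed mice was 144 ± 79.7 (SD, n = 4) in *Apoe* KO and 33.8 ± 10.1 (SD, n = 5) in WT liver. The log2 fold change between them was 1.97 ± 0.35 (SE, 95% interval 1.23 to 2.72, limma adjusted p = 0.00680), with 4 of 4 *Apoe* KO mice above every WT mouse. Without mouse 1 of the EtOH-fed *Apoe* KO group it was 2.08 (adjusted p = 0.0144), and without mouse 4 it was 1.64 (adjusted p = 0.0168). In the pair-fed mice the genotypes overlapped in *Plat*, with a log2 fold change of -0.15 ± 0.40 (SE, limma adjusted p = 0.853).

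*Plat* rose with EtOH feeding in *Apoe* KO mice by 1.69 ± 0.36 (SE) on the log2 scale (limma adjusted p = 0.00475), with every EtOH-fed value above every pair-fed one, as in 14.0% of all genes, and by 1.79 without EtOH-fed mouse 1 (adjusted p = 0.00844). In WT mice the same difference was -0.44 ± 0.38 (SE, 95% interval -1.26 to 0.38, adjusted p = 0.486), and all EtOH-fed values lay within the pair-fed range. The interaction for *Plat* was 2.13 ± 0.54 (SE) on the log2 scale (limma adjusted p = 0.0345). That call was lost when any 1 of 9 of the 18 mice was left out, among them EtOH-fed *Apoe* KO mouse 4 (1.80, adjusted p = 0.0842), although it held without mouse 1 of that group (2.23, adjusted p = 0.0363). In pair-fed WT mouse 1 the value of 23 was 4 reads, so the pair-fed WT spread in *Plat* holds counting error of that size.

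*Plau*, the gene of urokinase, lies on chromosome 14 at 20836660 to 20843385 on the plus strand. Pair-fed WT mice 1 to 4 had values of 109, 82, 83 and 101, and pair-fed *Apoe* KO mice 1 to 5 had 53, 34, 38, 74 and 59. The EtOH-fed WT values were 46, 63, 60, 81 and 88 in mice 1 to 5. In EtOH-fed *Apoe* KO mice 1, 2, 4 and 5 they were 89, 127, 197 and 119. The order of the genotypes was therefore opposite on the 2 diets: every pair-fed *Apoe* KO mouse lay below every pair-fed WT mouse, and every EtOH-fed *Apoe* KO mouse lay above every EtOH-fed WT mouse, the closest pair being 89 and 88. Values without overlap in the downward direction were found in 3.02% of all genes among the pair-fed mice, and in the upward direction in 7.12% among the EtOH-fed mice.

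Neither genotype difference in *Plau* passed the test across all genes. It was 0.94 ± 0.28 (SE) on the log2 scale in EtOH-fed mice (95% interval 0.35 to 1.54, limma adjusted p = 0.0715) and -0.89 ± 0.28 (SE) in pair-fed mice (interval -1.49 to -0.30, adjusted p = 0.108). In EtOH-fed mice it was 1.12 without mouse 1 of the *Apoe* KO group (adjusted p = 0.0506) and 0.74 without mouse 4 (adjusted p = 0.198), and a fit over all 4 groups gave 0.94 with an adjusted p of 0.0428. The difference between the 2 genotype effects did pass, with an interaction of 1.84 ± 0.39 (SE, limma adjusted p = 0.0131), and it passed without each of the 18 mice in turn (adjusted p = 0.00754 to 0.0379). With EtOH feeding *Plau* rose in *Apoe* KO mice, from a mean of 51.6 ± 16.2 (SD, n = 5) to 133 ± 45.7 (SD, n = 4), by 1.35 ± 0.30 (SE) on the log2 scale (limma adjusted p = 0.00668), and by 1.52 without EtOH-fed mouse 1 (adjusted p = 0.00616). All 4 EtOH-fed *Apoe* KO mice were above the 5 pair-fed ones. In WT mice the means were 93.8 ± 13.4 (SD, n = 4) pair-fed and 67.6 ± 16.9 (SD, n = 5) EtOH-fed, a log2 fold change of -0.49 ± 0.24 (SE, adjusted p = 0.206).

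*Plaur*, the membrane-anchored receptor that holds urokinase at the cell surface, lies on chromosome 7 at 24462484 to 24475968 on the plus strand, 4763296 bp from *Apoe*. The sequence before its start is shown because *Plaur* is the receptor that was higher with EtOH in *Apoe* KO liver, and because the reference promoter table holds it. The 200 bases printed run from 250 to 51 bases before the RefSeq start (GRCm38.p6, chr7:24462233-24462432, plus strand), with the matches to the AP-1 motif TGANTCA and to the GC box GGGCGG in capitals:
Plaur: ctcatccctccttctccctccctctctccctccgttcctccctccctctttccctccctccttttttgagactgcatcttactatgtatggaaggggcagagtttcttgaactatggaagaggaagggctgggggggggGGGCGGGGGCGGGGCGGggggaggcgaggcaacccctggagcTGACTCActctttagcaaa
It held 1 AP-1 match, whose first base was 69 bases before the start, and 3 GC boxes that begin 111, 105 and 100 bases before the start, the second directly after the first and the third sharing 1 base with the second. Searched on both strands, the AP-1 motif was present in 5.58% and the GC box in 24.6% of 32841 promoters over the same window, and the TATA box TATAAA, in 9.14% of them, had no match here. The data hold no measurement of binding or of accessibility at these bases.

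*Plaur* values were 127, 55, 37 and 101 in pair-fed WT mice 1 to 4. Pair-fed *Apoe* KO mice 1 to 5 had 76, 50, 40, 58 and 50, and EtOH-fed WT mice 1 to 5 had 46, 43, 56, 62 and 65. In EtOH-fed *Apoe* KO mice 1, 2, 4 and 5 the values were 113, 110, 188 and 73. All 4 of these lay above the EtOH-fed WT mice, but pair-fed WT mice 1 and 4 reached into their range. The means of the EtOH-fed mice were 121 ± 48.2 (SD, n = 4) in *Apoe* KO and 54.4 ± 9.66 (SD, n = 5) in WT, and the log2 fold change was 1.08 ± 0.28 (SE, 95% interval 0.46 to 1.69, limma adjusted p = 0.0486). This call lay close to the threshold and was kept in only 1 of the 9 fits that left out 1 mouse, with adjusted p from 0.0318 without *Apoe* KO mouse 5 to 0.134 without *Apoe* KO mouse 4 (0.0877 without mouse 1). It was also lost after median-of-ratios scaling (0.95, adjusted p = 0.0687).

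*Plaur* rose with EtOH feeding in *Apoe* KO mice by 1.08 ± 0.30 (SE) on the log2 scale (limma adjusted p = 0.0193), with 3 of 4 EtOH-fed mice above the pair-fed range. Without EtOH-fed *Apoe* KO mouse 4 this was 0.84 (adjusted p = 0.0588), and without mouse 1 it was 1.09 (adjusted p = 0.0397). In WT mice the difference between the diets was -0.41 ± 0.34 (SE, adjusted p = 0.475), and in pair-fed mice that between the genotypes was -0.41 ± 0.36 (SE, adjusted p = 0.543). The interaction of 1.49 ± 0.47 (SE) did not pass (limma adjusted p = 0.0950), also without EtOH-fed *Apoe* KO mouse 1 (1.49, adjusted p = 0.113), but it passed without pair-fed WT mouse 3 (1.80, adjusted p = 0.0245). Because *Plaur* lies near the targeted locus, the surrounding genes were counted: of the 401 genes within 20 Mb of *Apoe*, 10.7% passed between the EtOH-fed genotypes, against 4.52% of the genes elsewhere, and 7.23% against 1.58% passed between the pair-fed genotypes. An effect of linked sequence and an effect of the lost gene cannot be told apart for *Plaur* between the genotypes. The same holds where its change with EtOH in *Apoe* KO mice is set beside that in WT mice.

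*Serpine2*, the gene of protease nexin-1, lies on chromosome 1 at 79794197 to 79861180 on the minus strand. Its promoter window is shown as that of the inhibitor that passed in none of the comparisons (GRCm38.p6, chr1:79858716-79858915, minus strand, the same distances from the RefSeq start), with the GC box GGGCGG in capitals:
Serpine2: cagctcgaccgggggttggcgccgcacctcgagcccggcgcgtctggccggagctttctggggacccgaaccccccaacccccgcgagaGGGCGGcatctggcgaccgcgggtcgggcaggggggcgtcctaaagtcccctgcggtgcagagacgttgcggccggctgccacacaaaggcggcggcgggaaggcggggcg
The RefSeq start lies 2515 bp downstream of the GENCODE start used for the gene span above, so the window falls inside that span. It held 1 GC box, starting 161 bases before the RefSeq start, and no match to the AP-1 motif or the TATA box. The reference table gave a window for 2 of the 4 genes, and *Plat* and *Plau* are named only.

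The *Serpine2* values were 173, 195, 152 and 161 in pair-fed WT mice 1 to 4, and 318, 222, 189, 218 and 211 in pair-fed *Apoe* KO mice 1 to 5. EtOH-fed WT mice 1 to 5 had 136, 94, 203, 153 and 163. The EtOH-fed *Apoe* KO values were 120 in mouse 1, 134 in mouse 2, 315 in mouse 4 and 292 in mouse 5. That last group was split, with mice 1 and 2 inside the EtOH-fed WT range and mice 4 and 5 above it. Its log2 fold change against EtOH-fed WT mice was 0.43 ± 0.31 (SE, 95% interval -0.24 to 1.10, limma adjusted p = 0.509), an interval that reaches from a small decrease to a 2.15-fold increase. This value depended on single mice and did not pass without any of them: it was 0.67 without *Apoe* KO mouse 1 (adjusted p = 0.274), 0.20 without mouse 4, 0.24 without mouse 5 and 0.27 without WT mouse 2, and limma-voom gave 0.16. In pair-fed mice 4 of 5 *Apoe* KO values were above all WT values, and the log2 fold change of 0.42 ± 0.18 (SE) did not pass (unadjusted p = 0.0299, limma adjusted p = 0.200). With EtOH feeding *Serpine2* differed by -0.21 ± 0.29 (SE, adjusted p = 0.632) in *Apoe* KO mice, a value that was 0.02 without mouse 1, and by -0.22 ± 0.21 (SE, adjusted p = 0.542) in WT mice. The interaction for *Serpine2* was 0.01 ± 0.38 (SE, 95% interval -0.78 to 0.79), and 0.24 without EtOH-fed *Apoe* KO mouse 1 (adjusted p = 0.787).

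**Figure D2:**
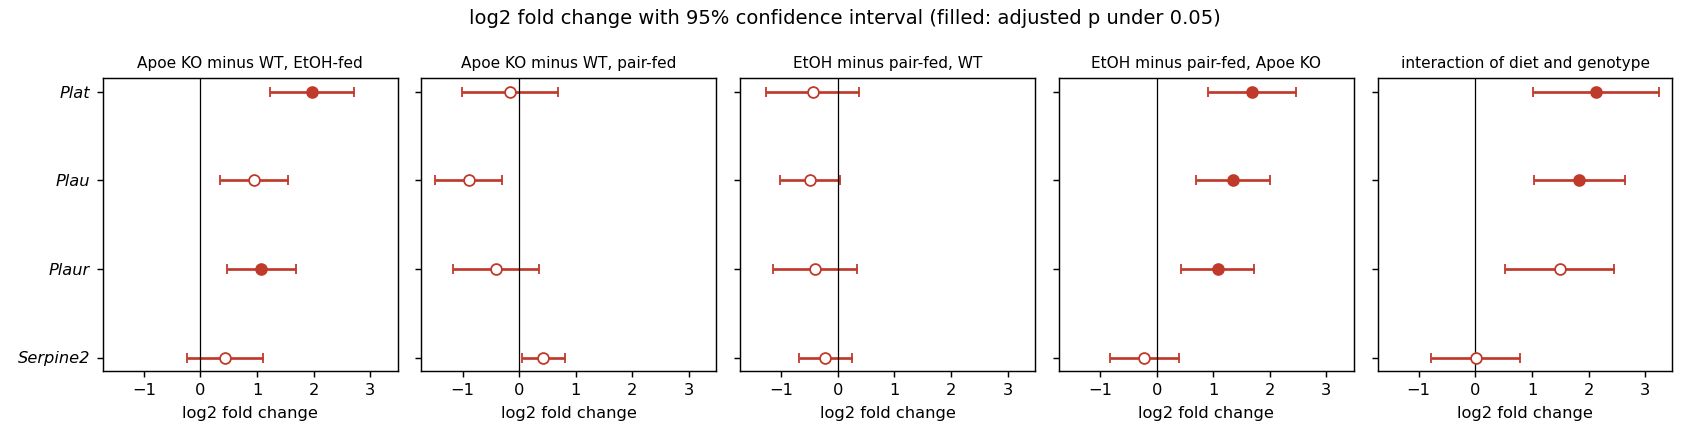
Log2 fold change with its 95% confidence interval from limma for *Plat*, *Plau*, *Plaur* and *Serpine2* in the 4 comparisons and the interaction. Filled points passed an adjusted p of 0.05. The points of *Plat*, *Plau* and *Plaur* lie left of 0 in the pair-fed and the WT panels and right of 0 in the other 3, while *Serpine2* stays within 0.43 of 0.

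To compare levels between the genes, values were divided by the length of the exons of each gene (6241 bases for *Plat*, 2367 for *Plau*, 2617 for *Plaur* and 8287 for *Serpine2*). Per kilobase, *Plau* was the most abundant in every group except the pair-fed *Apoe* KO mice. In pair-fed WT mice the order of levels per kilobase was *Plau* at 39.6 ± 5.66 (SD, n = 4), *Plaur* at 30.6 ± 15.8, *Serpine2* at 20.5 ± 2.25 and *Plat* at 7.89 ± 3.93, and only the step to *Plat* was wider than the spreads of both neighbours. In pair-fed *Apoe* KO mice *Serpine2* came first at 28.0 ± 6.03 per kilobase (SD, n = 5), above *Plau* at 21.8 ± 6.86 and *Plaur* at 20.9 ± 5.14, and these neighbours lay within 1 SD of each other or nearly so. In EtOH-fed WT mice *Plau* at 28.6 ± 7.14 (SD, n = 5), *Plaur* at 20.8 ± 3.69 and *Serpine2* at 18.1 ± 4.80 per kilobase overlapped in their spreads, and *Plat*, the lowest of the 4 in every group, stood apart at 5.42 ± 1.62. In the EtOH-fed *Apoe* KO mice *Plat* reached 23.1 ± 12.8 per kilobase (SD, n = 4), which lay within the spread of *Serpine2* at 26.0 ± 12.4. *Plau* at 56.2 ± 19.3 and *Plaur* at 46.2 ± 18.4 per kilobase led that group and did not differ beyond their spread.

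The spread between mice was itself widest in the EtOH-fed *Apoe* KO group for 3 of the 4 genes. The coefficient of variation there was 55.3% for *Plat*, 34.4% for *Plau*, 39.9% for *Plaur* and 47.6% for *Serpine2*, against 10.9% for *Serpine2* in pair-fed WT mice. *Plaur* was the exception, with 51.7% in the pair-fed WT mice, whose values fell into a higher pair (mice 1 and 4) and a lower pair (mice 2 and 3). Across the 18 mice, Pearson correlations of log2(value + 1), given as a description of points that share libraries and groups, were 0.726 between *Plat* and *Plau*, 0.766 between *Plau* and *Plaur* and 0.686 between *Plat* and *Plaur*. Without EtOH-fed *Apoe* KO mouse 4 they were 0.590, 0.662 and 0.512 over 17 mice, and without mouse 1 they were 0.733, 0.776 and 0.659. *Serpine2* had 0.309 with *Plat*, 0.0974 with *Plau* and 0.229 with *Plaur*, which became 0.437, 0.133 and 0.351 without mouse 1 and 0.0657, -0.167 and -0.0134 without mouse 4. With the group means removed the values of *Serpine2* were 0.332, 0.394 and 0.287, while those among the other 3 genes were 0.553 for *Plat* and *Plau*, 0.568 for *Plau* and *Plaur* and 0.329 for *Plat* and *Plaur*, so that *Serpine2* no longer stood apart from the lowest of them.

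The genes whose values followed each of the 4 most closely over the 18 mice were found among the other genes with a mean of at least 100. For *Plat* they were *Loxl2*, a collagen cross-linking enzyme (r = 0.923, and 0.848 with the group means removed), *Cx3cr1*, the fractalkine receptor of macrophages (0.923 and 0.800), and *Col1a1*, a chain of type I collagen (0.905 and 0.696). *Plau* was closest to *Pkm*, a glycolytic enzyme (0.952 and 0.869), *Msn*, which links membrane and actin (0.941 and 0.854), and *Hk1*, a hexokinase (0.935 and 0.796). *Plaur* was closest to *Ltbp1*, a latent TGF-beta binding protein (0.928 and 0.859), *Col5a1*, a type V collagen chain (0.909 and 0.865), and *Fkbp10*, a collagen chaperone (0.881 and 0.769). For *Serpine2* the leading genes were *Mup20* (0.831 and 0.783), the pseudogene *Rps19-ps6* (0.830 and 0.801) and *Cited2*, a transcriptional co-regulator (0.810 and 0.862), and the first and second of these belong to families of near-identical copies whose reads could be split in counting. All of these values are descriptions over mice that share their groups. They are the highest among 11073 genes considered (11072 for *Serpine2*). They were not computed again without EtOH-fed *Apoe* KO mouse 4, and removing the group means does not remove that mouse.

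Of 57 listed genes around plasminogen, chosen by role, 52 were measured and *Lrp2*, *Mst1r*, *A2m*, *Serpinb2* and *Serpina5* were not analysed here. The lists were chosen with earlier results of these data known. Their shares are therefore descriptions and no test of an excess over all genes. Between the EtOH-fed genotypes 8 of the 52 were higher in *Apoe* KO mice and 0 lower (15.4%, against 4.69% of all genes), with a median log2 fold change of 0.19 beside 0.11 over all genes. The 8 became 6 without EtOH-fed *Apoe* KO mouse 1, 4 without mouse 4, 5 after median-of-ratios scaling and 8 with limma-voom.

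Among the proteins that hold plasminogen at the cell surface, *Anxa2*, which forms a complex with the *S100a10* product, was higher in *Apoe* KO than in WT liver after EtOH (1672 ± 885 against 731 ± 137, log2 fold change 1.08, limma adjusted p = 0.0290), 1 of 5 in its list. Of 10 partners of the urokinase receptor 3 passed, all higher: the integrin genes *Itgb2* (log2 fold change 1.08, adjusted p = 0.00951) and *Itga3* (0.96, adjusted p = 0.0450) and *Fpr1*, a formyl peptide receptor (1.31, adjusted p = 0.0386). Downstream of plasmin and urokinase 3 of 12 passed, namely the matrix metalloproteinase genes *Mmp3* (2.83, adjusted p = 0.0113) and *Mmp2* (1.19, adjusted p = 0.0146) and *Ltbp1* (1.16, adjusted p = 0.0321). *Mmp3* was low, with an EtOH-fed mean of 59.0 ± 26.8 in *Apoe* KO and 8.20 ± 5.02 in WT liver. *F11*, coagulation factor XI, was 1 of 5 in the list of other activators that passed (0.63, adjusted p = 0.0199). Plasminogen itself did not pass: *Plg* had means of 43560 ± 6115 and 36970 in these mice (adjusted p = 0.535). None of the 3 other serpins measured, 6 clearance receptors, 8 fibrin genes or 3 genes of plasmin and its direct inhibitors passed in the limma fit. Of the 8 calls those of *F11* (0.56, adjusted p = 0.0523) and *Fpr1* (1.17, adjusted p = 0.0945) were lost without EtOH-fed *Apoe* KO mouse 1, and those of *F11*, *Itga3*, *Fpr1* and *Ltbp1* without mouse 4.

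With EtOH feeding in *Apoe* KO mice 15 of the 52 listed genes rose and 10 fell (48.1%, against 23.2% of all genes), 12 and 14 after median-of-ratios scaling, 12 and 6 without EtOH-fed mouse 4 and 13 and 12 without mouse 1. The surface proteins rose, 3 of 5, with *S100a10* at a log2 fold change of 1.40 (limma adjusted p = 2.57e-05), *Anxa2* at 1.45 (adjusted p = 0.00147) and *Eno1*, alpha-enolase, at 0.40 (adjusted p = 0.0186). *Itga5* rose by 0.53 (adjusted p = 0.00359), *Mmp2* by 1.37 (adjusted p = 0.000472), *Mmp3* by 4.37 (adjusted p = 0.00136) and *Thbd*, the thrombin receptor thrombomodulin, by 1.60 (adjusted p = 0.00100). The mannose receptor genes *Mrc1* (0.93, adjusted p = 0.00371) and *Mrc2* (0.99, adjusted p = 0.00345) rose as well. Genes of secreted plasma proteins were among those that fell: *Plg* (-0.44, adjusted p = 0.0358), *Serpinf2*, the plasmin inhibitor (-0.45, adjusted p = 0.00675), *Pzp* (-0.43, adjusted p = 0.0362), *Klkb1*, plasma prekallikrein (-0.78, adjusted p = 0.000234), and the fibrinogen chains *Fgb* (-0.48, adjusted p = 0.0279) and *Fgg* (-0.46, adjusted p = 0.0269). *Lrp1*, an endocytic receptor that clears activator and inhibitor complexes, fell by 0.64 (adjusted p = 0.00317), and *Met*, the receptor of hepatocyte growth factor, fell by 0.52 (adjusted p = 0.000958). Of the 25 calls 3 were lost without mouse 1 (*Fpr1*, *Fgg* and *Hgf*, the gene of hepatocyte growth factor) and 7 without mouse 4 (these 3, *Pzp*, *Plg*, *Eno1* and *Fgb*).

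**Figure D3:**
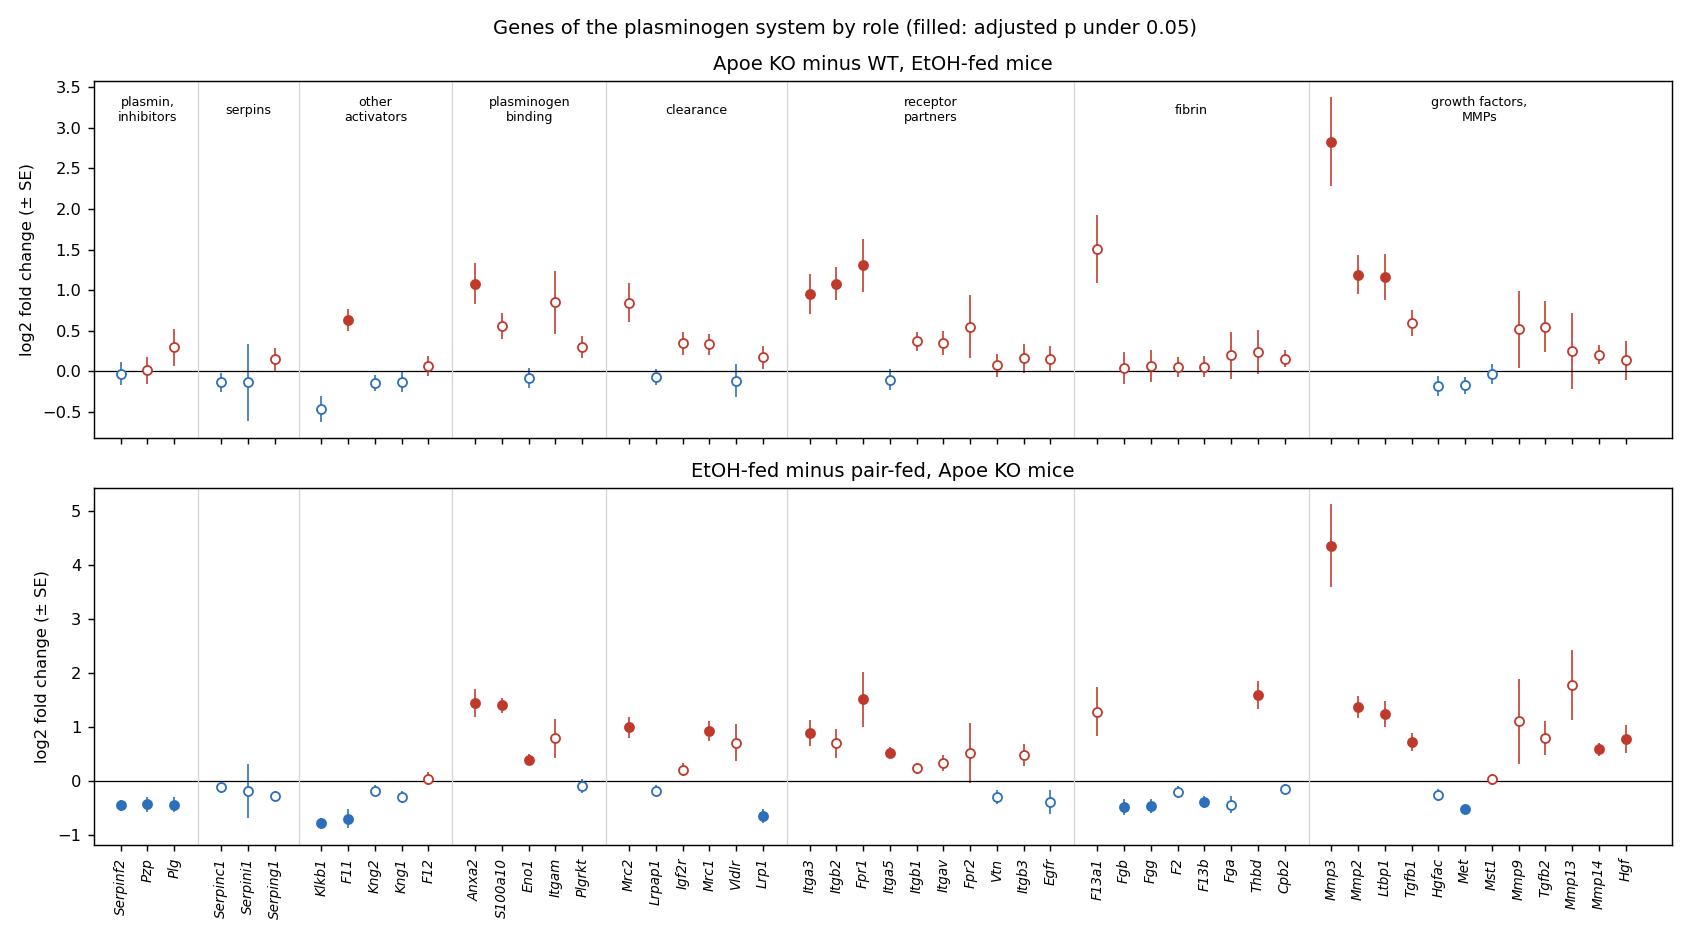
Log2 fold change ± SE of each measured pathway gene, grouped by role, for *Apoe* KO minus WT in EtOH-fed mice (top) and between EtOH-fed and pair-fed *Apoe* KO mice (bottom), where red is above 0, blue below 0, and filled points passed a limma adjusted p of 0.05. In the top panel the 8 filled points are all above 0, and in the bottom panel the genes of plasmin and its inhibitors are filled and below 0.

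In the remaining comparisons fewer of the listed genes passed. Between the pair-fed genotypes 3 of 52 were higher in *Apoe* KO mice and 0 lower (5.77%, against 1.73% of all genes): *Plg* (59040 ± 8421 against 32440 ± 10660, log2 fold change 0.92, limma adjusted p = 0.0401), *Serpinf2* (0.47, adjusted p = 0.0455) and *F13b*, a subunit of the fibrin cross-linking factor XIII (0.64, adjusted p = 0.0258). After median-of-ratios scaling 2 of the 52 were higher, and limma-voom gave 5 higher and 1 lower. In WT mice 4 rose and 2 fell with EtOH (11.5%, against 12.7% of all genes), with *Vldlr*, the very low density lipoprotein receptor, at 0.95 (adjusted p = 0.00254) and *F11* at -0.84 (adjusted p = 0.00225) among them. The interaction was positive for 6 of 52 and negative for 0 (11.5%, against 2.84% of all genes), and among the named genes these were *Anxa2* (1.67, adjusted p = 0.0113), *S100a10* (0.93, adjusted p = 0.0321), *Itga3* (1.35, adjusted p = 0.0251), *Mmp3* (6.13, adjusted p = 0.00330) and *Ltbp1* (1.59, adjusted p = 0.0307). Without mouse 1 *S100a10* lost this call (0.84, adjusted p = 0.0601), and without mouse 4 *Ltbp1* did (1.29, adjusted p = 0.0668).

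Markers of several liver cell types also differed between these groups. In whole tissue a larger number of such cells and more RNA per cell cannot be told apart. Between the EtOH-fed genotypes all 5 Kupffer cell markers were higher in *Apoe* KO mice, where 4.25% of all genes were (4 of 5 without mouse 1, without mouse 4 or after median-of-ratios scaling), and their summed value was 10705 to 20653 against 4297 to 8212. Of the 8 markers of monocytes and infiltrating macrophages 5 were higher, with a summed value of 3736 to 9371 against 2078 to 3850. There were 5 without mouse 1 and 4 without mouse 4, and *Cx3cr1* lost its call in both. Of the 10 stellate cell and fibroblast markers 2 were higher, *Col1a1* and *Col3a1* (3 markers without mouse 1), and the sum was 19390 to 34964 against 11900 to 18779. Of the 4 cholangiocyte markers 1 was higher, *Krt19*, and 0 were without mouse 4 or after median-of-ratios scaling. None of the 9 endothelial, 6 hepatocyte, 4 mesothelial or 3 measured neutrophil markers passed, and 5 further neutrophil markers were not analysed here. The hepatocyte sum of 2164856 to 3068421 in EtOH-fed *Apoe* KO mice matched the liver label, and *Alb* was its largest part.

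The mouse with the highest marker sum in the EtOH-fed *Apoe* KO group differed between the lists. EtOH-fed *Apoe* KO mouse 4, the highest of its group for *Plat*, *Plau*, *Plaur* and *Serpine2*, had the highest sums of that group for stellate cells and fibroblasts (34964), monocytes and infiltrating macrophages (9371), cholangiocytes (2128) and mesothelial cells (1330). The Kupffer cell sum was instead highest in mouse 1 (20653) and the endothelial sum in mouse 5 (14073). With EtOH feeding in *Apoe* KO mice 8 of 9 endothelial and 6 of 10 stellate and fibroblast markers rose, the latter 4 without mouse 4, where 16.3% of all genes rose. In WT mice 7 of 9 endothelial markers rose with EtOH feeding, where 931 of 15052 genes rose and 12.7% passed in either direction. None of the 4 genes passed in that comparison, and this is not read against the marker counts. The part of these cell types in the values of *Plat*, *Plau*, *Plaur* and *Serpine2* was not tested.

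**Figure D4:**
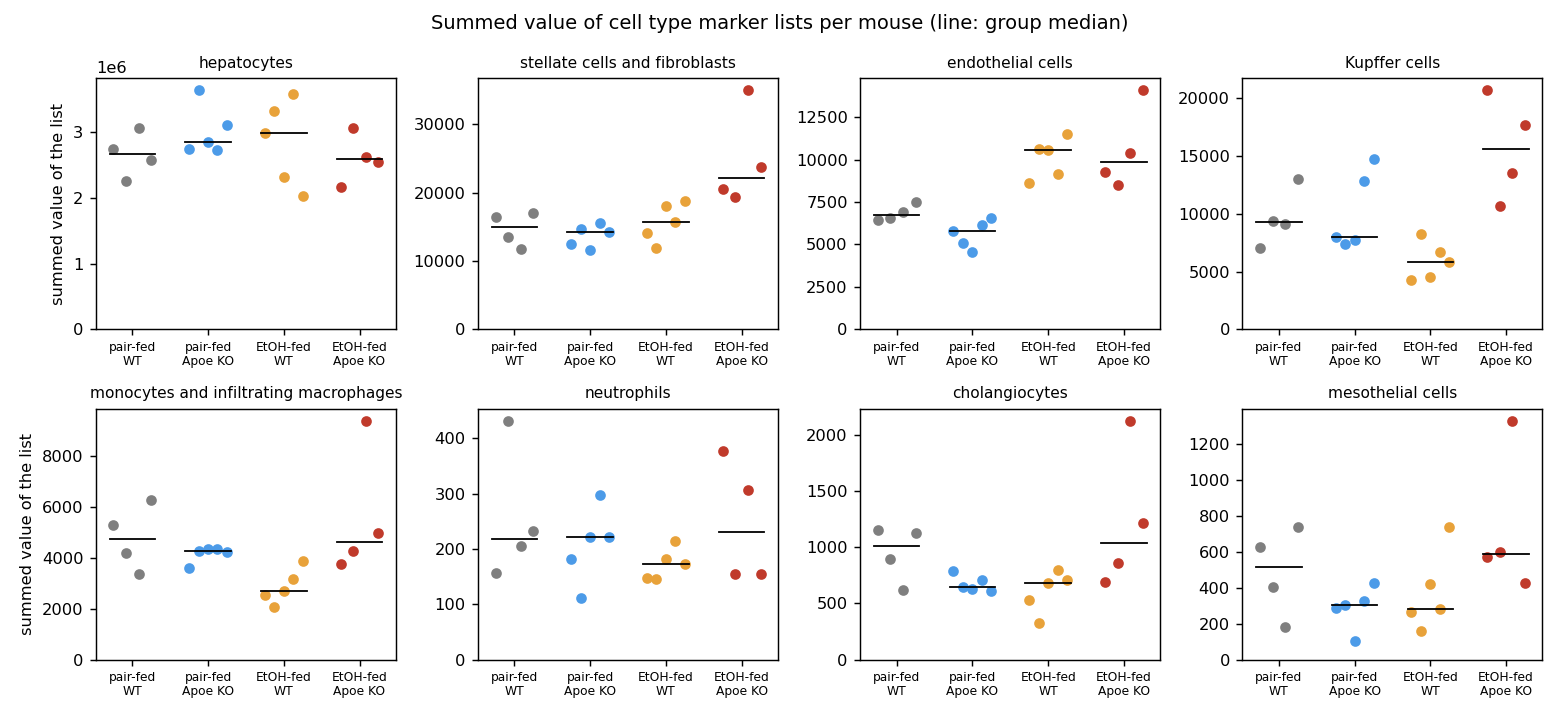
Summed deposited value of 8 cell type marker lists in each mouse by group (points), with the group median as a line. The vertical axes start at 0 and differ between panels. The Kupffer cell sums of the 4 EtOH-fed *Apoe* KO mice, from 10705 to 20653, lie above those of the 5 EtOH-fed WT mice, and the hepatocyte sums of the groups overlap.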

How the data were processed

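PolyA RNA from the liver of 18 mice was sequenced. Per the labels, the authors' processing used FastQC, Trimmomatic, HISAT2, SAMtools, featureCounts and DESeq2 with the GRCm38 build, and versions are not given in the sources used here. The deposited per-mouse signal values are read counts that the authors rescaled to almost the same total per mouse and rounded, by a scaling that is not described. Columns with the authors' mean, fold change, test and rank were not used. Genes on several lines (56) were counted once, which left 15052, with a lowest mean of 12.1 over the mice.

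The values were fitted as log2(value + 1) with limma 3.58.1 (R 4.3.3), with empirical Bayes moderation and a trend on intensity, and p-values were adjusted by Benjamini-Hochberg over all 15052 genes at 0.05, on the mice compared, and on all 18 mice for the interaction. The pseudocount makes fold changes of low genes smaller. The fit was tested on simulated data with 1 fixed dispersion. In each comparison 85 to 115 genes were changed at each size, all with a mean of at least 50. With a simulated log2 change of 1 it called 22.9% to 27% of the changed genes, depending on the comparison, and with a change of 2 it called 97.6% to 100%. Changes of the smaller size were thus mostly missed in the simulation. Its settings differ from the data, so these shares are not those of the fits reported. Reads per mouse were estimated from the spacing of low values, resolved in 12 of 18 mice, and limma-voom took 1 unit as 1 read in the others. Among the EtOH-fed WT mice the reads were resolved in 1 of 5, and in the unresolved mice 1 read was worth about 1 unit or less. Alternatives were median-of-ratios scaling, pseudocounts of 0.1 and 10, a mean of at least 50, all 4 groups in 1 fit, array quality weights, the mouse number as a block, each mouse left out and, chosen after seeing the data, limma-voom on estimated reads and the list counts and list genes without single mice, the list counts under other scalings, and the mice of the block fit without the block. The block fit held only mice whose number occurs in every group compared (8, or 12 for the interaction). Named were the 4 genes, *Apoe*, at most 4 genes per pathway list that passed in any comparison, by lowest adjusted p, and the 3 genes most correlated with each of the 4. Marker genes were described as lists, and those named singly were chosen after their values were seen. A listed pathway gene is not reported here. The 4 genes and the lists were chosen with earlier results of these data known. Promoter sequences are from RefSeq (GRCm38.p6), and gene positions and exon lengths from GENCODE M21.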

Additional observations from a re-analysis of the deposited data

Results flagged for a closer look

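*Plat* and *Plau* had genotype differences that differed between the diets by a test of the difference itself. The interaction was 2.13 for *Plat* (limma adjusted p = 0.0345, call lost without any 1 of 9 of the 18 mice) and 1.84 for *Plau* (adjusted p = 0.0131, call kept without each mouse) on the log2 scale. *Plau* was also picked out because its genotypes separated in every mouse in opposite directions, *Apoe* KO being higher by 0.943 on the log2 scale in EtOH-fed mice and lower in pair-fed mice. In EtOH-fed mice that separation was narrow, with 89 in *Apoe* KO mouse 1 and 88 in WT mouse 5. Whether it holds under another scaling was not tested. In none of the 16 combinations of the 4 genes and the 4 groups did 1 mouse lie far enough from its group to pass Dixon's limit, where chance alone gives 0.8. With 4 or 5 mice per group only a very wide gap can pass that limit, and the combinations share mice. The absence of a flag is therefore not read as evenness of the mice.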

How the results depend on the processing

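Over the 4 genes and 5 comparisons, 161 values under another setting kept direction and side of the threshold, as did 184 with 1 mouse left out, while 18 lost, 1 gained and 13 reversed when a mouse was left out. Under other settings 7 lost, 2 gained and 4 reversed. The kept values include those that passed in neither fit, so they are no measure of how stable the calls were. With 1 mouse left out, the *Plat* interaction call was lost in 9 of 18 fits and the EtOH-fed *Plaur* genotype call in 8 of 9. Between EtOH-fed genotypes *Plaur* lost its call with median-of-ratios scaling (0.95), a pseudocount of 0.1 (1.09) and a fit over all 4 groups (1.08), and *Plau* gained one with all 4 groups (0.94). Array weights gave 456 genes between pair-fed genotypes. The *Serpine2* interaction reversed with median-of-ratios scaling (-0.13) and limma-voom (-0.28). The cause was not tested.

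The mouse number as a block left out mice, so it is set beside the same 8 mice (12 for the interaction) without the block. Between EtOH-fed genotypes *Plaur* lost its call in both (1.09, adjusted p = 0.0521 with the block and 0.0753 without). For the interaction on these mice *Plat* (2.45), *Plau* (1.98) and *Plaur* (1.95) passed with the block and none of the 3 without it, and *Serpine2* was at -0.044 in both. The genes called were 1083 with the block and 578 without it between EtOH-fed genotypes, and 392 and 452 between pair-fed genotypes, beside 706 and 261 over all mice. Same-numbered mice of the EtOH-fed genotypes correlated at 0.135 on average (-0.0242 to 0.230), and different-numbered mice at -0.0327, and 3 of 4 correlated best with their own number. This is a hint of pairing, but 1 of the 4 pairs was not over 0.1, the value required of every pair, and in the other comparisons 0 or 1 of 4 were, so the numbers were not taken to pair mice.

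Leaving out 1 mouse gave log2 fold changes of 0.84 to 1.29 for *Plaur* and 0.20 to 0.67 for *Serpine2* between EtOH-fed genotypes, 0.84 to 1.29 for *Plaur* with EtOH in *Apoe* KO mice, -0.46 to 0.13 for *Plat* between pair-fed genotypes, and -0.44 to 0.020 for *Serpine2* with EtOH in *Apoe* KO mice. For the interaction it gave 1.80 to 2.44 for *Plat*, 1.21 to 1.80 for *Plaur* and -0.22 to 0.24 for *Serpine2*. Genes called were 327 to 620 between EtOH-fed genotypes (353 without *Apoe* KO mouse 4, 408 without mouse 5, 327 without WT mouse 1), 73 to 670 between pair-fed genotypes, 1186 to 1904 with EtOH in WT mice, and 167 to 561 in the interaction. *Plat* gave no value in the pair-fed or the WT diet comparison at a mean of at least 50. Depth limits *Plat* most, at 4 reads in pair-fed WT mouse 1.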
